A study of Drosophila melanogaster and Drosophila virilis with 60 samples.

Results

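The Lcp65A cluster is a run of cuticle protein genes on chromosome arm 3L of *Drosophila melanogaster*. The 10 members were the rows of the expression table for Lcp65Aa, Lcp65Ab1, Lcp65Ab2, Lcp65Ac, Lcp65Ad, Lcp65Ae, Lcp65Af, Lcp65Ag1, Lcp65Ag2 and Acp65Aa, matched by gene identifier. All 10 were found among the 14127 genes listed, and all 10 were among the 14047 genes that varied and were tested. Proteins of this family carry the Rebers-Riddiford sequence, which binds chitin, and epidermal cells secrete them when a new cuticle is built. A cuticle is made in the late embryo, before each larval moult, in the prepupa for the pupa, and in the pupa for the adult, and each round follows a pulse of the steroid hormone ecdysone. Genes named Lcp go back to proteins of larval cuticle, and Acp65Aa goes back to a protein of adult cuticle.

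Poly(A) RNA was sequenced from pools of whole wild-type Oregon-R animals at 10 stages, with 3 biological replicates per stage according to the labels, which gave 30 libraries. The stages were embryos aged 10 h, larvae, pupal stages P1, P2, P3, P4 and P5, mid pupae aged 24 h, late pupae aged 48 h, and imagoes, which were adult males aged 5 d. The larval libraries were 1 of the 1st, 1 of the 2nd and 1 of the 3rd instar, so that an instar had no replicate. The sex of younger animals was not verified, and no stage carried a transgene or a treatment. Because whole animals were sequenced, fewer cuticle-secreting cells and less RNA per cell cannot be told apart.

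The deposited values were on a log2 scale, and whole counts could be recovered from them, as described under the processing. The recovered counts summed to between 7350350 and 13434700 per library. The study's text gives fewer reads per sample than these totals, and this conflict was not resolved. Counts, floors and CPM given below rest on the smallest step of the values being 1 count. A level is given below as the normalized count, the count divided by the size factor of its library, and a difference as the later minus the earlier stage on the deposited log2 scale, which understates differences between low values. A difference was called when the adjusted p of limma, fitted to all tested genes of 29 libraries without the 2nd instar, was under 0.05. The 3rd instar library stood apart in scale, with a normalized total of 40142200, against 6018420 to 15161800 in the other 29 libraries. In mid pupae replicate 1, 65 genes exceeded the averaged value of the remaining replicates of that stage by 2 or more on the log2 scale. The same number was 1 for replicate 2 and 2 for replicate 3. In late pupae it was 3, 32 and 47 for replicates 1, 2 and 3. Among stage markers, all 5 salivary glue genes were highest in the 3rd instar, all 3 pupal cuticle markers at P4 and all 4 male accessory gland genes in imagoes. Of 5 larval fat body and serum genes, 4 were highest in the 3rd instar.

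In the BDGP6.54 annotation the members lay between positions 6132990 and 6152745 of 3L, a stretch of 19756 bp with 15 annotated genes other than transposons. Of these genes 14 were protein-coding, so that 4 cuticle protein genes that are no members (Cpr65Av, Cpr65Aw, Cpr65Ax1 and Cpr65Ax2) lay between the members. On the minus strand Lcp65Ag2 (FBgn0020637, 3L:6132990-6133593), Lcp65Ag1 (FBgn0020638, 3L:6134697-6135274), Lcp65Af (FBgn0020639, 3L:6136215-6136791) and Lcp65Ae (FBgn0020640, 3L:6137583-6138118) followed each other with gaps of 791 to 1103 bp. A gap of 5276 bp separated them from a plus-strand run of Lcp65Ad (FBgn0020641, 3L:6143395-6144101), Lcp65Ac (FBgn0020642, 3L:6144819-6145393), Lcp65Ab2 (FBgn0020643, 3L:6146674-6147089), Lcp65Ab1 (FBgn0020644, 3L:6149548-6149960) and Lcp65Aa (FBgn0020645, 3L:6151304-6151803). Acp65Aa (FBgn0020765, 3L:6152050-6152745) closed the cluster on the minus strand, 246 bp from Lcp65Aa. Exons of a member added up to 413 to 616 nt, and no member was overlapped by another gene.

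**Figure D1:**
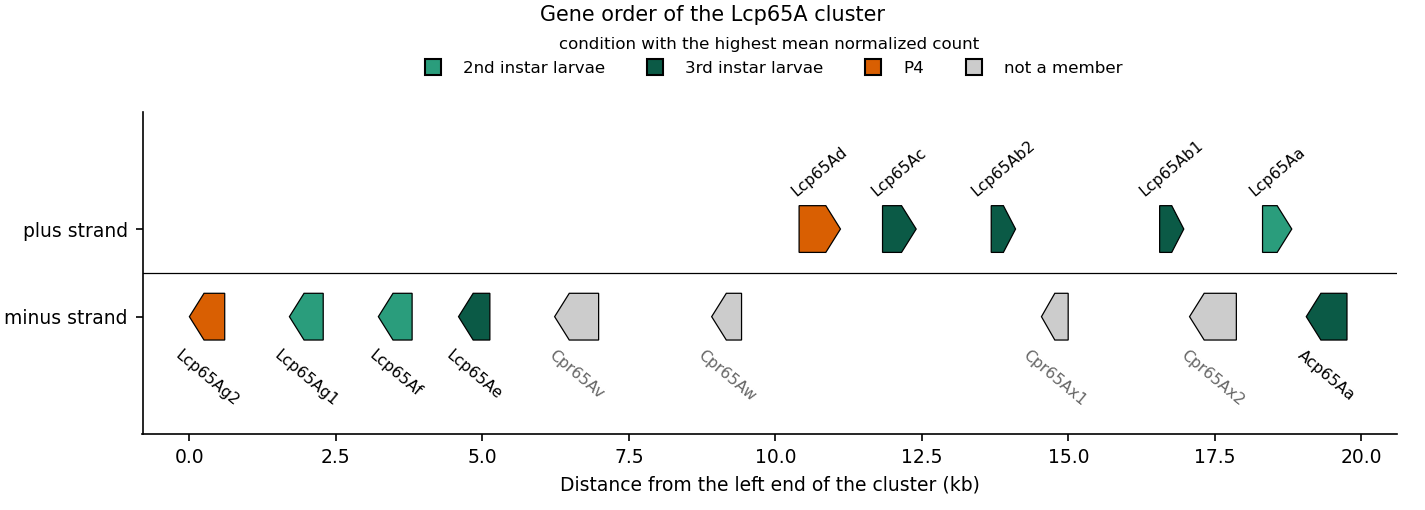
Map of the cluster, with the distance from its left end in kb on the x axis and the strand on the y axis. Arrows are genes drawn to scale, coloured by the condition with the highest mean normalized count. Lcp65Ad and Lcp65Ag2 were highest at P4, and the other 8 members in the 2nd or 3rd instar. For Lcp65Ag2 the P4 mean was 1.01 times the 2nd instar value, on an uncertain split between copies.

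Lcp65Ab1 and Lcp65Ab2 are listed under shared older names, as are Lcp65Ag1 and Lcp65Ag2, and both pairs are near-identical copies. The authors estimated abundance by pseudomapping, which divides reads that fit several transcripts, so that the split within a pair is uncertain. In embryos all reads of the first pair went to 1 copy in each library: Lcp65Ab2 had 53 counts and Lcp65Ab1 had 0 in replicate 1, whereas Lcp65Ab1 had 89 and 58 counts and Lcp65Ab2 had 0 in replicates 2 and 3. The sum of the pair was even, at 36.1, 49.4 and 35.7 normalized counts. Values of these 4 genes are therefore read below also as sums over copies.

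The members took very different shares of the RNA along development. Their summed counts were 0.0474% of all counts in embryos on average, 0.677% in the 1st instar, 1.23% in the 2nd and 1.15% in the 3rd. The share was 0.00147% at P1, 0.000884% at P2 and 0.000906% at P3. At P4 it was 1.99% on average, with 1.65% and 2.22% as the lowest and the highest of 3 libraries. At P5 the members made up 0.0473%, and then 0.0619% of mid pupal, 0.00159% of late pupal and 0.000279% of imaginal counts. The mid pupal mean rested on replicate 1, which had 0.182%, against 0.00183% as the lowest of the other replicates.

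The member with the most counts changed with the stage. Lcp65Ag2 held 45.5% and Lcp65Ag1 40.9% of the member counts in embryos, and Lcp65Ag1 led the 1st instar with 54.2% and the 2nd with 44.7%. The neighbour Lcp65Ag3, which is no member, was above both in embryos, with 4240, 6944 and 3118 counts. It was also above both in the 1st instar, with 52250 counts, but in the 2nd instar its 46807 counts were below the 48649 of Lcp65Ag1. Lcp65Ab1 held 83.5% in the 3rd instar, and it still led the small remainder at P1 with 77.5% and at P2 with 67.9%. Lcp65Ad led from P3 to mid pupae, with 47.7% at P3, 80.9% at P4, 58.8% at P5 and 77.9% in mid pupae, or 43.7% in mid pupae without replicate 1. Acp65Aa led in late pupae with 41.7%. In imagoes Lcp65Ag2 held 41.0%, of very few counts. These are shares of counts, and they are not divided by exon length.

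**Figure D2:**
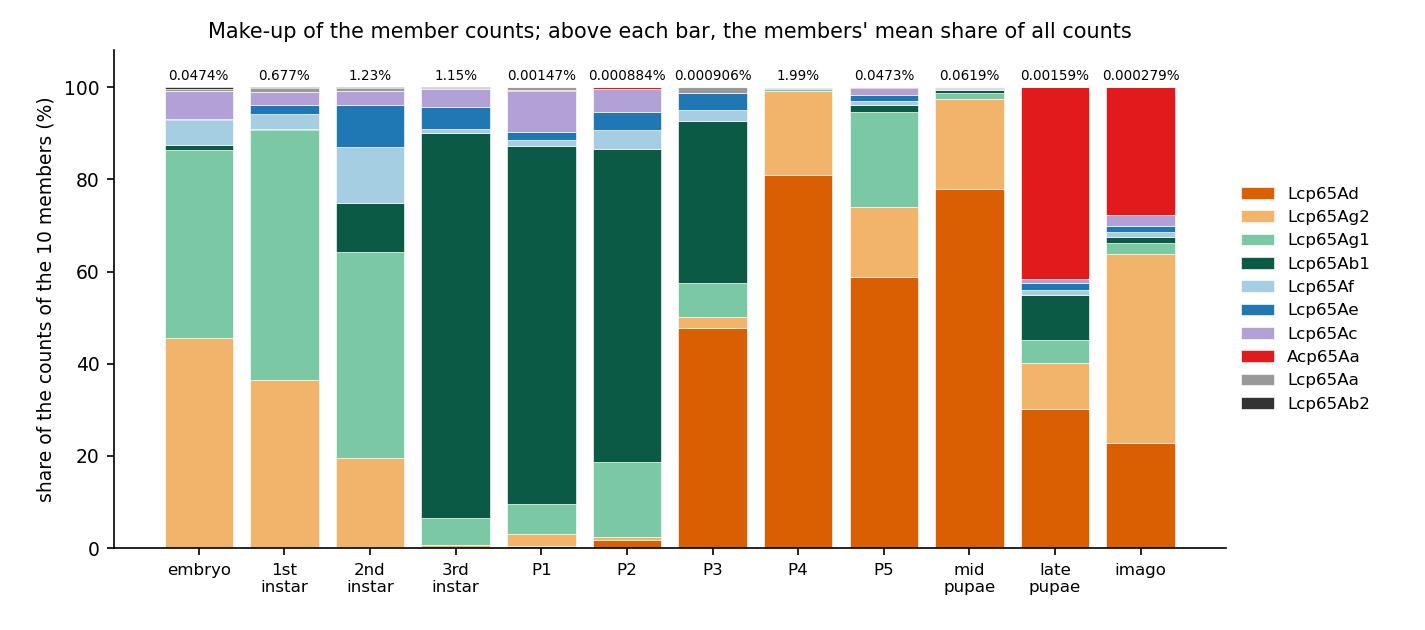
Share of the summed member counts taken by each member (y axis, percent) in 12 conditions in temporal order (x axis); each bar adds up the counts of its libraries, and the number above it is the mean share of the 10 members in all counts. Lcp65Ag1 and Lcp65Ag2 make up most of the embryonic and early larval bars, Lcp65Ab1 the 3rd instar bar, and Lcp65Ad the P4 bar.

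**Figure D3:**
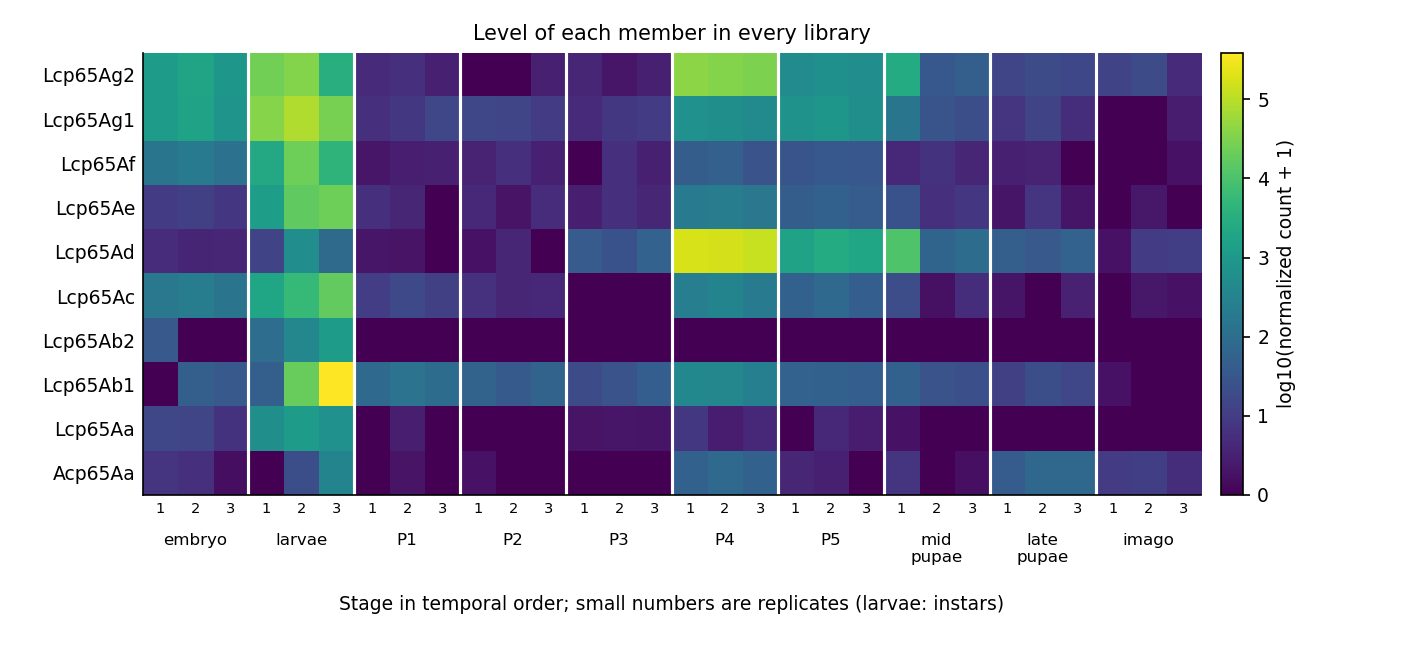
Level of each member (rows, in gene order) in each of 30 libraries (columns, in temporal order) as log10 of the normalized count plus 1; small numbers are replicates, and in larvae instars. Most members are high in larvae, near 0 from P1 to P3 and high again at P4, and Lcp65Ad and Lcp65Ag2 are high in mid pupae replicate 1 alone among the mid pupal libraries.

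Embryos already held RNA of the cluster. Lcp65Ag2 had 1237, 1857 and 902 normalized counts and Lcp65Ag1 had 1192, 1632 and 782. Lcp65Ac had 170, 223 and 139 normalized counts, and Lcp65Af had 150, 194 and 129. All 3 embryo libraries were above every pupal and imaginal library for Lcp65Af, and Lcp65Aa was low at 14.3, 13.9 and 5.54. Per kb of exon the embryonic means were 2452 normalized counts for Lcp65Ag2 and 2325 for Lcp65Ag1, 351 for Lcp65Ac and 303 for Lcp65Af. Lcp65Ad, Lcp65Ae and Acp65Aa had 1 to 19 counts per embryo library. Against the mean of the other 9 stages 5 members were called higher in embryos, where 27.6% of all tested genes were: Lcp65Aa, Lcp65Ac, Lcp65Af, Lcp65Ag1 and Lcp65Ag2.

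The larval libraries held the highest levels of 8 members. In the 1st instar Lcp65Ag1 had 37133 and Lcp65Ag2 24993 normalized counts, followed by Lcp65Af with 2307, Lcp65Ac with 1942, Lcp65Ae with 1320 and Lcp65Aa with 598. Lcp65Ab1 had 47.7 and Lcp65Ad 12.9 normalized counts in that library, and Acp65Aa had no count, which allows up to 3 counts. The 3 instars, each a single library with no test, differed in which members were high.

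Lcp65Ab1 had the steepest series over the instars, with 47.7, 19833 and 385681 normalized counts in the 1st, 2nd and 3rd. The 3rd instar library was 19.4 times the 2nd for this gene, or 7.34 times in CPM, the count scaled by the library total. Its 129079 counts made it the 12th most counted gene of the 3rd instar library. Its copy Lcp65Ab2 had 98.0, 394 and 1171 normalized counts, so that the pair summed to 386853 in the 3rd instar. Lcp65Ac had 1942, 5423 and 17205 normalized counts, and Lcp65Ae had 1320, 17023 and 22090. The ratio of the 3rd to the 2nd instar was 3.17 for Lcp65Ac and 2.97 for Lcp65Ab2 in normalized counts, but 1.20 and 1.12 on the CPM scale. The order of the last 2 instars of Lcp65Ae turned round on the CPM scale, with 550 CPM in the 3rd and 1123 CPM in the 2nd instar.

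Other members were highest in the 2nd instar. Lcp65Af had 2307, 22843 and 4374 normalized counts over the 3 instars, Lcp65Ag1 had 37133, 83299 and 27035, and Lcp65Aa had 598, 1159 and 675. The order of the 1st and the 3rd instar turned round on the CPM scale for Lcp65Af (109 CPM in the 3rd and 228 CPM in the 1st) and for Lcp65Aa (16.8 CPM in the 3rd and 59.2 CPM in the 1st). Lcp65Ag2 was lowest in the 3rd instar, with 24993, 35656 and 3221 normalized counts, and on the CPM scale its 1st instar value (2473 CPM) was above its 2nd instar value (2352 CPM). The ratio of Lcp65Ag2 to Lcp65Ag1 counts was 0.673 in the 1st, 0.428 in the 2nd and 0.119 in the 3rd instar. Lcp65Ad had 12.9, 548 and 83.7 normalized counts. Acp65Aa had 0, 20.5 and 338 normalized counts, and its 3rd instar value was its highest of all conditions.

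Between larvae and embryos 9 of the 10 members were called higher in larvae, where 31.9% of all tested genes were, and none was called lower, where 25.2% were. The median difference of the members was 4.14, against 0.05 over all tested genes. Lcp65Ae had the largest difference, with 7.34 ± 0.60 (SE, adjusted p = 3.36e-10), and Lcp65Ag1 had 4.74 ± 0.38 (adjusted p = 2.30e-10). Lcp65Ad had 1.36 ± 1.10 and was not called (adjusted p = 0.316), but it was called without mid pupae replicate 1. The larval group of this test was the 1st and the 3rd instar, and calls of 3 members rested on single libraries. Without the 3rd instar Lcp65Ab1 fell short of the threshold, with 0.81 in place of 6.94, and Acp65Aa turned to -0.63 in place of 1.59. Acp65Aa was also not called when any 1 of the 3 embryo libraries was left out (1.41 to 1.70), and Lcp65Ag2 was not called without the 1st instar, with 1.31 in place of 2.78. On the CPM scale, which lowered the median difference of all genes to -0.54, Lcp65Ag2 and Acp65Aa were not called.

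By P1 the cluster had fallen close to 0. Per the methods the larvae were taken about midway between moults, so the time of the fall before P1 is not known. Between P1 and larvae 9 members were called lower at P1, where 28.9% of all tested genes were, and none was called higher, where 32.1% were. The median difference was -6.23 for the members and 0.03 for all tested genes, or 0.68 for all genes on the CPM scale. Lcp65Ag1 differed by -9.89 ± 0.38 (SE, adjusted p = 9.36e-16) and had 4.74, 6.89 and 14.3 normalized counts at P1. Lcp65Ab1 remained the highest, with 81.8, 133 and 95.1 normalized counts at P1. It differed by -5.36, and this call rested on the 3rd instar: without that library the difference was 0.77 for Lcp65Ab1 and 0.12 for Acp65Aa, in place of -2.11. Lcp65Ad was not called at -1.75 ± 1.10, although its P1 libraries were all below the larval ones. It was called without mid pupae replicate 1, with all 30 libraries (-2.78) and on log2(normalized count + 1) (-4.39).

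From P1 to P3 most members had few counts, the highest being Lcp65Ab1 with 69, 135 and 93 counts at P1. Between P2 and P1 none was called higher or lower, where 2.72% and 3.25% of all tested genes were, and none passed an unadjusted p under 0.05 in limma. Between P3 and P2 none was called higher or lower either, where 4.19% and 2.48% were, and Lcp65Aa alone passed an unadjusted p under 0.05, at 1 count in each P3 library. Lcp65Ab2 was assigned no count in any of the 24 pupal and imaginal libraries, so that the sum of the pair was the value of Lcp65Ab1 there. Counting error alone would allow up to 0.0136 CPM over these libraries together. But Lcp65Ab1 had 10 to 429 counts in the pupal libraries, and the split within the pair is uncertain. Absence of Lcp65Ab2 RNA is therefore not shown. Lcp65Ac had no count in the 3 P3 libraries, whereas it had 8 to 16 counts in the P1 libraries. Lcp65Ab1 had 60.5, 36.8 and 59 normalized counts at P2, and Lcp65Ag1 had 14.7, 13.9 and 8.43. The other members had at most 5.19 normalized counts in any P2 library.

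Lcp65Ad was above its P2 libraries in all P3 libraries. It had 38.9, 24.3 and 57.3 normalized counts at P3, against 0.865, 2.98 and 0 at P2, and the groups did not overlap. The difference of 1.70 ± 0.98 was not called (adjusted p = 0.589). Without mid pupae replicate 1, which entered the spread of this gene, the same difference was called.

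The cluster was high again at P4. Between P4 and P3 7 members were called higher at P4, where 11.1% of all tested genes were, and none was called lower, where 8.24% were. The median difference of the members was 2.92, against 0.10 over all tested genes. All 3 P4 libraries were above all 3 P3 libraries for 9 members, the exception being Lcp65Ab2, which had no count in either stage. The share of all tested genes separated in this way was not computed, so this number has no background to be read against. The 7 calls were kept without any 1 of the 29 libraries and under every other alternative tried.

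Lcp65Ad and Lcp65Ag2 had the largest differences among the members. Lcp65Ad had 181038, 166097 and 128199 normalized counts at P4, against 38.9, 24.3 and 57.3 at P3. The P4 mean was 3948 times the P3 mean, and the difference on the log2 scale was 11.16 ± 0.98 (SE, adjusted p = 3.45e-09). The gene held 154411, 183274 and 124280 counts at P4, and by count it ranked 3, 2 and 5 among all genes of these libraries. Its P4 mean of 257216 normalized counts per kb was above that of every other member at that stage. In larvae, where most of the cluster peaked, Lcp65Ad had at most 548 normalized counts.

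Lcp65Ag2 had 41719, 35398 and 30900 normalized counts at P4, against 2.99, 1.16 and 2.05 at P3. The P4 mean was 17450.5 times the P3 mean, a larger ratio than for Lcp65Ad, and it rests on 6 counts at P3. The difference on the log2 scale, which was smaller than for Lcp65Ad, was 10.55 ± 0.85 (SE, adjusted p = 7.26e-10), and no value of the 2 stages overlapped. The level at P4 (36006 ± 5435, SD, n = 3) stood beside 35656 in the 2nd instar library, so that this member had 2 peaks as its reads were divided. On the CPM scale these levels were 3651 at P4 and 2352 in the 2nd instar. Summed, Lcp65Ag1, Lcp65Ag2 and Lcp65Ag3 had a mean of 37216 normalized counts at P4. That was below the 83299 of Lcp65Ag1 alone in the 2nd instar library. A P4 level of Lcp65Ag2 equal to the larval one thus rests on the uncertain split between copies. With 66309 normalized counts per kb Lcp65Ag2 was the second highest member at P4.

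The near-identical copy Lcp65Ag1 was much lower at P4. Lcp65Ag1 had 661, 614 and 445 normalized counts at P4, against 3.99, 6.93 and 8.18 at P3, and rose by 4.28 ± 0.34 (SE, adjusted p = 4.56e-10). The count of Lcp65Ag2 was 63.1, 57.7 and 69.5 times that of Lcp65Ag1 in the P4 libraries, whereas it was 1.04, 1.14 and 1.15 times that of Lcp65Ag1 in embryos. Lcp65Ag3, the neighbour that is the third gene of this name, had 793, 628 and 492 normalized counts at P4 and was thus near Lcp65Ag1. The 3 genes summed to 43173, 36640 and 31836 normalized counts at P4 and to 8.97, 13.9 and 12.3 at P3, so that the sum over copies, which does not depend on how reads were divided, was also far higher at P4.

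The remaining calls at P4 had smaller differences than those of Lcp65Ad and Lcp65Ag2. Lcp65Ac had 246, 332 and 205 normalized counts at P4 and no count at P3, which makes its mean at least 248-fold higher when the floor is set at 3 counts over the 3 P3 libraries together. Lcp65Ae had 196, 227 and 164 normalized counts at P4, against 1.99, 4.62 and 3.07 at P3. Lcp65Af, with 43.4, 50.8 and 25.8 at P4 against 0, 4.62 and 2.05 at P3, rose by 1.60 ± 0.22 (SE, adjusted p = 4.54e-06). Acp65Aa had 53.9, 80.7 and 52.6 normalized counts at P4 and none at P3, at least 59.2-fold higher by the same floor.

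Lcp65Ab1 had 399, 389 and 257 normalized counts at P4, against 17.9, 25.4 and 46 at P3, and the groups did not overlap. Its difference of 2.71 ± 1.53 was not called (adjusted p = 0.232) in a fit whose spread held that between the 1st and the 3rd instar. When each instar was a group of its own it was called, and 8 members were then higher at P4, where 17% of all tested genes were. Lcp65Aa was not called at 7.03, 1.81 and 3.09 normalized counts, with 6, 2 and 3 counts. Relative to the 3rd instar, where Lcp65Ab1 had 385681 and Lcp65Ac 17205 normalized counts, the P4 means of 348 and 261 were small.

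**Figure D4:**
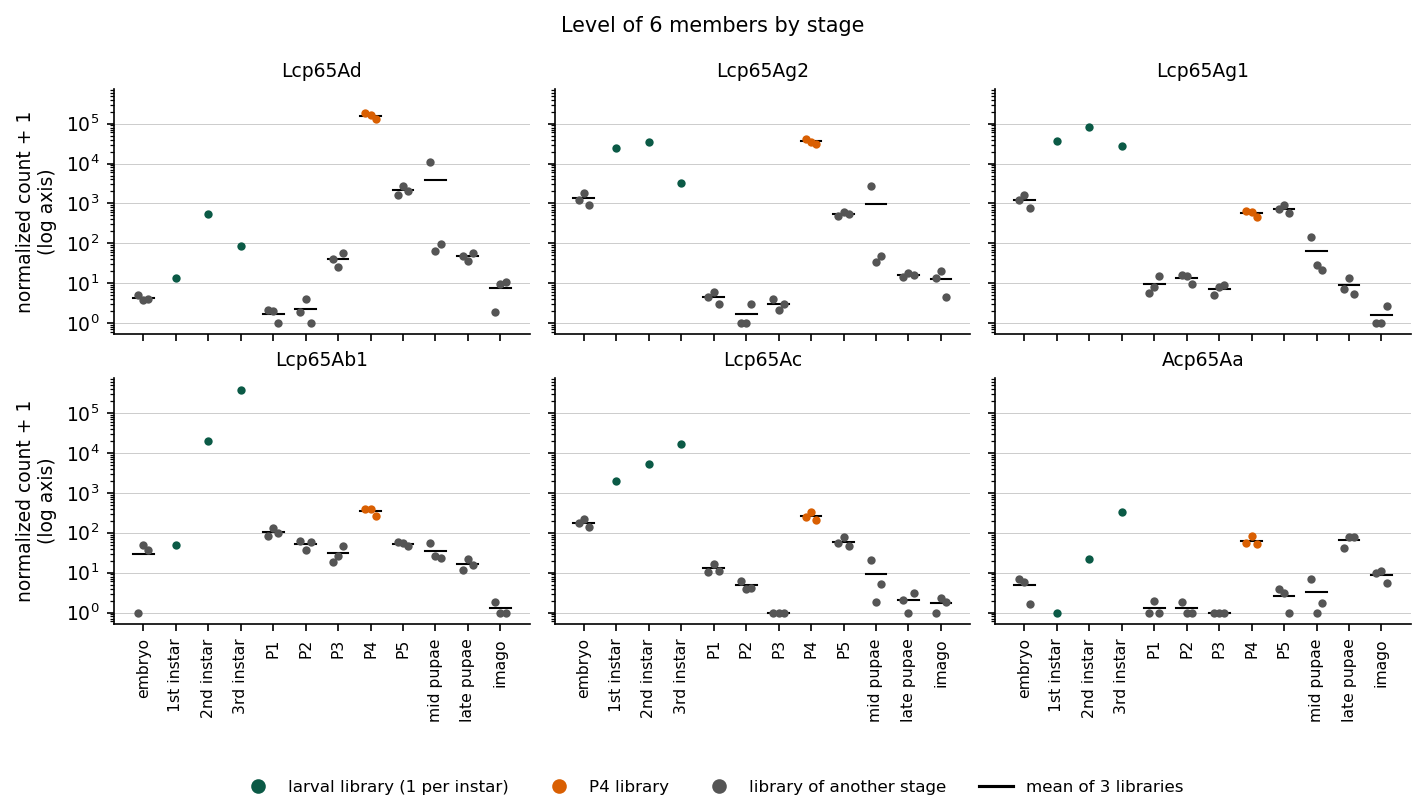
Normalized count plus 1 (y axis, log scale) of 6 members in 12 conditions in temporal order (x axis); points are libraries, lines are means of 3 replicates, and each instar is 1 library. At P4 every library has 30900 or more normalized counts of Lcp65Ad and Lcp65Ag2, and at most 661 of Lcp65Ag1, Lcp65Ab1, Lcp65Ac and Acp65Aa; Lcp65Ad and Lcp65Ag2 have 1 mid pupal point far above the other two.

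The pulse was short. Between P5 and P4 5 members were called lower at P5, where 10.8% of all tested genes were, and none was called higher, where 7.93% were. The median difference was -1.64 for the members and -0.07 for all tested genes. Lcp65Ad had 1650, 2718 and 2003 normalized counts at P5, against 181038, 166097 and 128199 at P4, so that the P4 mean was 74.6 times the P5 mean. It fell by 6.21 on the log2 scale (SE 0.98, adjusted p = 3.45e-05), and Lcp65Ag2 fell by 5.94 (SE 0.85, adjusted p = 9.21e-06). Lcp65Ac, with a difference of -1.71, Lcp65Ae with -1.58 and Acp65Aa with -2.08 were the other calls. Lcp65Ae was not called when any 1 of the P4 or P5 libraries was left out (-1.68 to -1.48), nor was Acp65Aa without P5 replicate 3 (-1.89).

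Lcp65Ag1 was not called at this step. It had 732, 913 and 592 normalized counts at P5, against 661, 614 and 445 at P4, with a difference of 0.36 ± 0.34 (adjusted p = 0.564). Among pupal stages this member was highest at P5, where it exceeded its copy Lcp65Ag2, which had 492, 627 and 534 normalized counts. The ratio of Lcp65Ag2 to Lcp65Ag1 counts was 0.673, 0.686 and 0.903 at P5. Lcp65Af was not called either, with 26.9, 33.4 and 31.9 normalized counts at P5 and a difference of -0.20 ± 0.22. Lcp65Ab1 had 56.7, 53.3 and 45.2 normalized counts at P5, against 399, 389 and 257 at P4, and the groups did not overlap. Its difference of -2.19 ± 1.53 was not called (adjusted p = 0.406), but it was called with each instar as its own group.

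The ratio of Lcp65Ad to Lcp65Ag2 counts was 3.35, 4.34 and 3.75 in the P5 libraries, and 4.34, 4.69 and 4.15 in the P4 libraries. Between these stages the mean of Lcp65Ad differed by 74.6 times and that of Lcp65Ag2 by 65.3 times. The ratio was 4.07, 1.90 and 1.94 in the mid pupal libraries. Against the sum of Lcp65Ag1, Lcp65Ag2 and Lcp65Ag3 the ratio was not steady, with 1.33, 1.76 and 1.76 at P5 and 4.19, 4.53 and 4.03 at P4. The P4 mean of that sum was 28.4 times its P5 mean. These are ratios of counts that are not divided by gene length.

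Mid pupal replicates differed in these members. Lcp65Ad had 11201 normalized counts in replicate 1, against 62.2 and 94.0 in replicates 2 and 3. Lcp65Ag2 had 2750 in replicate 1, against 32.7 and 48.5, and Lcp65Ag1 had 145, against 27.8 and 21. The pupal cuticle marker Edg78E had 9906 normalized counts in replicate 1, against 81.9 and 98.4, and Edg84A had 2649, against 0.819 and 7.96. The third marker, Pcp, had 2878 in replicate 1, against 133 and 158. These markers moved with the 2 members in that library, and their part in the result was not tested.

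Between mid pupae and P5 3 members (Lcp65Ac, Lcp65Af and Lcp65Ag1) were called lower in mid pupae, where 7.36% of all tested genes were. None was called higher, where 4.38% were, and the median difference was -1.10 for the members and -0.01 for all tested genes. Lcp65Ag1 fell by 3.28 on the log2 scale (SE 0.34, adjusted p = 1.84e-07). Without mid pupae replicate 1 the number was 5, where 7.35% of all tested genes were, since Lcp65Ad fell by 4.29 and Lcp65Ag2 by 3.06 and both were called, whereas with that library they differed by -2.06 ± 0.98 and -1.29 ± 0.85. Lcp65Ac was not called without P5 replicate 1 or 2 or without mid pupae replicate 2 or 3 (-1.58 to -1.28).

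Between late and mid pupae 3 members were called lower in late pupae, where 12.2% of all tested genes were: Lcp65Ad at -2.75, Lcp65Ag2 at -2.49 and Lcp65Ag1 at -1.28. The median difference was -0.54 for the members and 0.10 for all tested genes. All 3 calls were lost without mid pupae replicate 1, with -0.51 for Lcp65Ad, -0.72 for Lcp65Ag2 and -0.70 for Lcp65Ag1. Lcp65Ad was also not called without any 1 of the late pupal libraries, nor Lcp65Ag2 without late pupae replicate 1 or 3. In late pupae Lcp65Ad had 47.6, 35.1 and 55.6 normalized counts and Lcp65Ag2 had 13.5, 17.6 and 15.3.

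Acp65Aa was higher in late pupae. It had 40.4, 76.1 and 77.4 normalized counts in late pupae, against 5.90, 0 and 0.723 in mid pupae, and the groups did not overlap. The difference was 2.08 ± 0.58 (SE, adjusted p = 0.00804), and it was the only member called higher, where 18.4% of all tested genes were. This call was kept without any 1 of the 29 libraries, mid pupae replicate 1 included. In counts, Acp65Aa had 39, 65 and 71 in the late pupal libraries. Late pupae are the time when the adult cuticle is laid down.

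Acp65Aa thus had 3 separate maxima. They were the 3rd instar library with 338, P4 with a mean of 62.4 and late pupae with a mean of 64.6 normalized counts, and it had 1.66 at P5 and 2.21 in mid pupae between the last of them. On the CPM scale the 3 were closer, at 8.41 CPM in the 3rd instar, 6.42 CPM at P4 and 6.60 CPM in late pupae, and P4 replicate 2 had 8.81 CPM. No difference was called between late pupae and P4 (0.02 ± 0.58, adjusted p = 1), nor between P4 and larvae (0.22, adjusted p = 0.797). Its highest value over the 30 libraries was 113 counts, in the 3rd instar.

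Imagoes held the fewest counts of the cluster. Between imagoes and late pupae 1 member, Acp65Aa, was called lower in imagoes, where 20.9% of all tested genes were, and none was called higher, where 37.6% were. Acp65Aa had 8.61, 10.1 and 4.42 normalized counts in imagoes, against 40.4, 76.1 and 77.4 in late pupae, a difference of -1.52 ± 0.58 (SE, adjusted p = 0.0281). The groups did not overlap, but the call was lost without late pupae replicate 2 or 3 or imago replicate 1 or 3 (-1.55 to -1.41). Lcp65Aa had no count in any late pupal or imaginal library, and the other members had at most 18.9 normalized counts in an imago library.

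**Figure D5:**
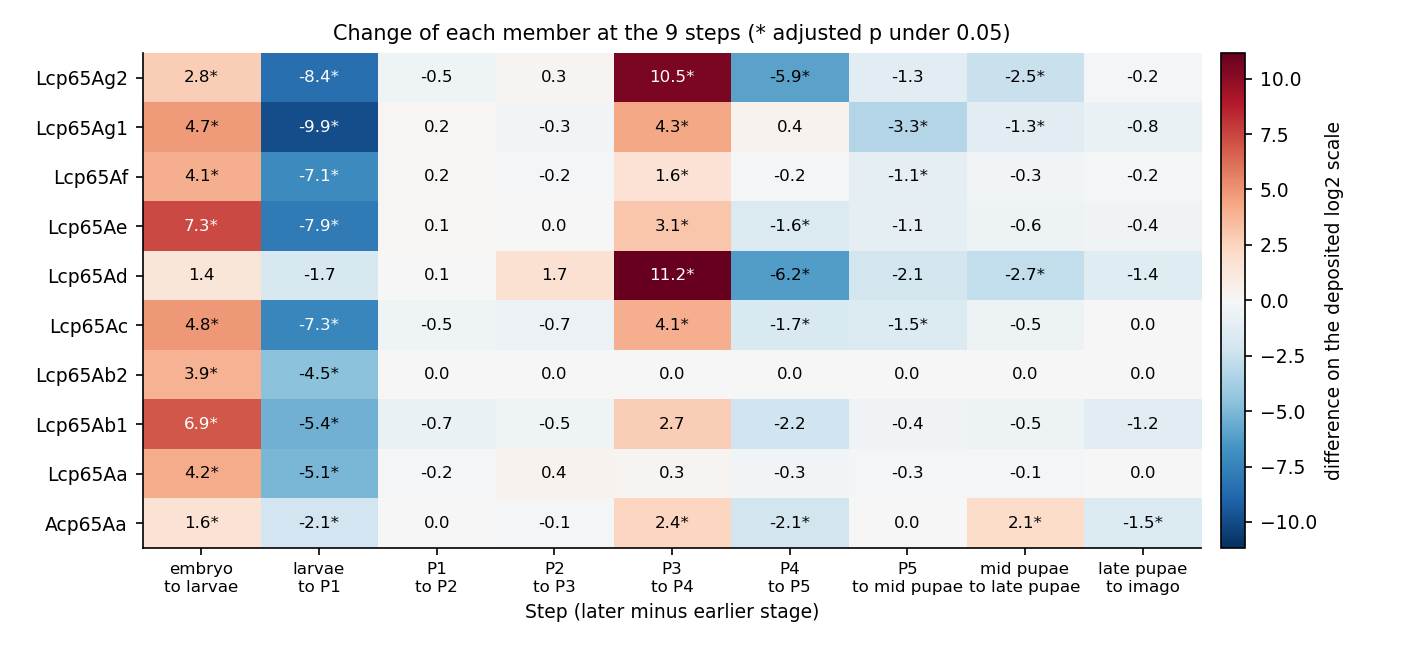
Difference of each member (rows, in gene order) at the 9 steps between successive stages (columns), later minus earlier stage on the deposited log2 scale; asterisks mark adjusted p under 0.05 in limma. The 3 steps with 7 or more calls are embryo to larvae, larvae to P1 and P3 to P4, and no call falls on P1 to P2 or P2 to P3.

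Over the 9 steps, 17 of 90 member differences were called higher and 21 lower. Depending on the step, 2.72% to 37.6% of all tested genes were called higher and 2.48% to 28.9% lower. These pooled totals are therefore no trait of the cluster by themselves. A second set of tests compared each stage with the mean of the other 9 stages. It called 9 members higher in larvae, where 29.1% of all tested genes were, 6 at P4, where 18.9% were, and 2 at P5 (Lcp65Ad and Lcp65Ag1), where 12.8% were. At P4 the 6 were Lcp65Ad with 10.95 ± 0.73, Lcp65Ag2 with 7.93 ± 0.64, Lcp65Ac with 2.13, Lcp65Ae with 2.09, Lcp65Ag1 with 1.94 and Acp65Aa with 1.64. Late pupae had 1 call, Acp65Aa with 1.66 ± 0.43 (SE, adjusted p = 0.00269), where 26.8% were. No member was called higher at P1 (14.3% of all tested genes), P2 (13%), P3 (13.5%), the mid pupal stage (14.9%) or the adult stage (43.8%). At an unadjusted p under 0.05 in limma, 1 member passed in mid pupae and none at P1, P2, P3 or in imagoes, and Lcp65Ad was called in mid pupae when each instar was its own group.

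The order of the 10 stages differed between members. For Lcp65Aa, Lcp65Ab2, Lcp65Ac, Lcp65Ae, Lcp65Af and Lcp65Ag1, larvae came first and differed from the next stage. The next stage was the embryo for Lcp65Aa, Lcp65Ab2, Lcp65Af and Lcp65Ag1, and P4 for Lcp65Ac and Lcp65Ae. For Lcp65Ab1 larvae and P4 came first and were not called different (3.87, adjusted p = 0.0527). For Lcp65Ad P4 came first and differed from P5 (6.21, adjusted p = 3.45e-05), whereas P5 and mid pupae, which came next, did not differ beyond their spread (2.06, adjusted p = 0.208). For Lcp65Ag2 P4 and larvae came first and did not differ beyond their spread (1.99, adjusted p = 0.0731). From the sixth stage of each order downwards, no neighbouring stages were called different in any member.

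Members resembled each other to different degrees over the 12 conditions, namely 9 stages other than larvae and 3 instars. These correlations are descriptions over means that share libraries and size factors. Pearson's r of the deposited means was highest between Lcp65Aa and Lcp65Af, at 0.981, which lie on opposite strands, and was 0.965 between Lcp65Ac and Lcp65Ae. Lcp65Ag1 and Lcp65Ag2, the neighbouring copies, had 0.880, and Lcp65Ab1 and Lcp65Ab2 had 0.892. Lcp65Ad was apart, with 0.562 against Lcp65Ag2 and -0.04 to 0.319 against the other 8. Acp65Aa had its highest value with Lcp65Ab1, at 0.728.

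Genes that are no members but were most like one included several cuticle protein genes. For Lcp65Ad they were Edg78E, an ecdysone-dependent pupal cuticle gene, at 0.968, and the cuticle protein gene Cpr65Ec at 0.945. Edg78E had 103290, 102244 and 77722 normalized counts at P4, against 36.9, 45.1 and 68.5 at P3. For Lcp65Ag2 they were the cuticle protein gene Cpr78Cc at 0.987 and CG13059 at 0.977. Cpr78Cc had 15833, 14991 and 12022 normalized counts at P4, against 1.99, 8.09 and 3.07 at P3, and 7405 in the 2nd instar. Edg78E and Cpr78Cc are named here for their likeness to Lcp65Ad and Lcp65Ag2 over these same conditions, so shared peaks are no further result. For Lcp65Ab1 the second closest was Lcp2, a larval cuticle gene at another site, at 0.975, with 225046 normalized counts in the 3rd instar. For Lcp65Ag1 and Lcp65Ac the closest was the gene Cpr65Ax2, at 0.986 and 0.974, and for Lcp65Af it was Cpr65Ax1, at 0.988, and both lie within the cluster. Acp65Aa was most like an rRNA pseudogene, 28SrRNA-Psi:CR40741, at 0.898, the lowest value for a closest gene among the 10 members. The closest genes of the others were CG32603 for Lcp65Aa (0.993), CG33461 for Lcp65Ab1 (0.979), CG13228 for Lcp65Ab2 (0.997) and CG13135 for Lcp65Ae (0.986).

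The 8 other cuticle protein genes at this site shared part of the pattern. Between larvae and embryos 7 of the 8 were called higher in larvae, where 31.9% of all tested genes were. Between P1 and larvae 7 were lower at P1, where 28.9% were. Between P4 and P3 4 of 8 were called higher and 1 lower at P4, where 11.1% and 8.24% of all tested genes were. Their median difference was 2.42. Cpr65Ax2 rose by 6.59 ± 0.62 (adjusted p = 1.03e-08) and Lcp65Ag3 by 4.67 ± 0.37. Lcp65Ag3 and Cpr65Au are overlapped by an antisense gene. Cpr65Ay fell by 1.74 on the log2 scale. Between P5 and P4 4 of the 8 were called lower at P5, where 10.8% of all tested genes were. Lcp65Ag3 was at -4.12, whereas Lcp65Ag1 was not called. Cpr65Au was high in imagoes, where it was called higher than in late pupae (7.15 ± 0.44, adjusted p = 8.70e-13), with means of 2587 and 0 normalized counts.

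Other cuticle protein genes were described through a list of 88 genes, which includes these 8 neighbours and the pupal cuticle markers. Between P4 and P3 42 of the 88 (47.7%) were called higher and 7 (7.95%) lower at P4, where 11.1% and 8.24% of all tested genes were, with a median difference of 1.03, against 0.10 over all tested genes, and the extremes were Edg78E at 10.21 and Cpr78E at -4.78. Between P5 and P4 10 (11.4%) were called higher and 31 (35.2%) lower at P5, where 7.93% and 10.8% were. Between larvae and embryos 40 (45.5%) were higher and 18 (20.5%) lower in larvae, where 31.9% and 25.2% were. Between P1 and larvae 9 (10.2%) were higher and 47 (53.4%) lower at P1, where 32.1% and 28.9% were. Between late and mid pupae, a step where 1 member rose, 21 of the 88 (23.9%) were higher and 17 (19.3%) lower in late pupae, where 18.4% and 12.2% were, and the highest was Cpr66Cb at 8.95.

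Genes of the ecdysone cascade were set beside the members, from a list of 13 that includes the receptor subunits EcR and usp and the early gene br. Between P4 and P3 3 of 13 were called higher and 3 lower at P4, where 11.1% and 8.24% of all tested genes were. The nuclear receptor gene ftz-f1 rose by 3.51 (adjusted p = 7.90e-10), with 2115, 4339 and 3655 normalized counts at P4, against 411, 238 and 161 at P3. Hr3, which encodes a nuclear receptor of the same cascade, fell by 3.08 on the log2 scale. Between P5 and P4 ftz-f1 fell by 3.85 and 5 of the 13 were called lower at P5, where 10.8% of all tested genes were. Between P1 and larvae 10 of the 13 were higher at P1, where 32.1% of all tested genes were. At the same step 9 members of the cluster were lower, where 28.9% were.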

How the data were processed

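Values were those of 30 *D. melanogaster* libraries. Per the methods, the authors used fastp to filter reads and Kallisto, with the BDGP6.46 transcriptome, to estimate abundances, added these up by gene and deposited the variance stabilized values of DESeq2, which are on a log2 scale. Inverting the transformation gave whole counts within 0.01 for 100% of counts below 30 in every library, where 1 count is the smallest step seen, on which the absolute scale of all counts rests. The members, lists and tests were chosen with earlier results of these data known. The named genes were the members, their neighbours at 65A, the 2 genes most like each member and the extremes of each list.

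The main test was limma 3.58.1 (R 4.3.3, lmFit and eBayes with an intensity trend) on the deposited log2 values of 14047 genes in 29 libraries, with 1 group per stage, contrasts between successive stages and of each stage with the mean of the others, and Benjamini-Hochberg adjustment over all genes. The methods leave the 2nd instar out, and it is given as values. In a simulation of the P3 to P4 step on 14017 genes, 89% of genes changed 4-fold and 35% of those changed 2-fold were called, with 2.36% false calls. The simulation gave a gene the same mean at all other stages and all genes the same dispersion. It changed 100 genes 2-fold and 100 genes 4-fold at P4 only, and held no difference between instars. Whether these rates apply to members with a wide spread was not tested. In the data, Lcp65Ab1 (SE 1.53) was not called at this step, although its P4 mean was 11.7 times its P3 mean. Replicate numbers of different stages did not pair (mean r of deviations -0.0122 for the same and 0.00595 for other numbers), so no block was used. Gene positions came from BDGP6.54 of Ensembl 115. Floors of 3 counts cover counting error only, whereas SE and SD rest on the spread between libraries. The *D. virilis* table, protein and promoter sequences were not analysed here.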

Additional observations from a re-analysis of the deposited data

Results flagged for a closer look

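The 2nd instar library was outside the tests, and its values for the cluster had no replicate. The members summed to 108745 counts in it, which was 1.23% of its total. For 3 members the value there was the highest of all conditions, with 1159 normalized counts for Lcp65Aa, 22843 for Lcp65Af and 83299 for Lcp65Ag1. For each of these 3 members the 2nd instar was also the highest condition on the CPM scale. The methods name suboptimal quality as the reason for leaving this library out, and its part in these values was not tested.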

How the results depend on the processing

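Of the 38 member differences called over the 9 steps, all 38 were kept with no intensity trend, a robust fit, the lowest 5% of genes removed, each instar as its own group, or the replicate block. The replicate block gave 17 higher and 22 lower member differences, against 17 and 21 without it, and 23 higher in the tests of a stage against the others, as without it. With all 30 libraries 3 of the 38 calls were lost, with quantile normalization 2, on log2(normalized count + 1) 2, on log2(CPM + 1) 2 and with voom weights on the counts 4. The calls lost in these runs were among Lcp65Ag2 and Acp65Aa from embryo to larvae, Lcp65Ae from P4 to P5, Lcp65Af from P5 to mid pupae, and Lcp65Ad and Lcp65Ag2 from mid to late pupae. Separate groups for the instars added 6 calls, among them Lcp65Ab1 at P4. Alternatives chosen after seeing the data were the CPM scale, the CPM scale with separate instars, which added 5 calls and lost 1, and separate instars without mid pupae replicate 1, which added 12 calls and lost 1. Leaving out 1 library at a time gave 16 to 19 higher and 18 to 26 lower differences over the steps, and 22 to 26 higher against the other stages. In these runs 3 called differences changed sign, all without the 3rd instar: Acp65Aa from embryo to larvae ranged from -0.63 to 3.81, Lcp65Ab1 from larvae to P1 from -11.50 to 0.77, and Acp65Aa from larvae to P1 from -4.33 to 0.12. A further 8 differences that were not called changed sign, and in the main fit these were at most 0.21 in size. With 1 library left out they could be larger, and Lcp65Ag2 from late pupae to imago ranged from -0.39 to 0.02. Where a run left larvae with 1 library, that library was assumed to vary like the other groups. Depth limits Lcp65Aa, Lcp65Ab2 and Acp65Aa most, since they had 677, 392 and 113 counts at their highest.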
